A study of Mus musculus with 2 samples.

Results

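The insulin-like growth factor (IGF) system was examined in explanted mouse ureters treated with an inhibitor of WNT secretion. By a rule on names, with earlier results of these data known, 10 genes were taken. These were the ligands *Igf1* and *Igf2*, the receptor *Igf1r*, the binding proteins *Igfbp2*, *Igfbp3*, *Igfbp4*, *Igfbp5*, *Igfbp6* and *Igfbp7*, and *H19*, the non-coding neighbour of *Igf2*. They were 10 of 29924 gene names on the array, and their 17 probes were 17 of 39429. Each probe was printed 4 times, which gave 68 of 157716 spots. All 17 probes were well above background in both channels of both arrays, so all 10 genes were tested, and none of their spots was saturated.

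Ureters of wildtype NMRI embryos were isolated at E11.5 and kept for 18 h in serum-free medium with 10 µM IWP-2 or with the solvent DMSO alone. IWP-2 inhibits PORCN, the acyltransferase that WNT proteins need for their release. Ureters of many embryos were pooled, sex was not determined, and RNA of a treated pool and of a control pool was labelled with different dyes and hybridised to the same Agilent array of 60-base probes. This was done for 2 pairs of pools on 2 arrays. The treated pool carried AlexaFluor647 on replicate 1 and AlexaFluor555 on replicate 2. Since each dye orientation was used once, a dye effect of a probe and a difference between the pools of the arrays cannot be told apart. Both arrays lay on 1 slide, and their number limits the precision.

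IGF1 and IGF2 are secreted growth factors that act through IGF1R, a receptor tyrosine kinase which signals through insulin receptor substrates to PI3K and AKT. In the embryo, IGF2 is the more prominent ligand, and both ligands promote growth of many tissues. The IGF-binding proteins are secreted carriers that hold the ligands outside of cells and can either prolong their presence or keep them from the receptor. *Igf2* and *H19* are imprinted in opposite ways, *Igf2* being expressed from the paternal and *H19* from the maternal copy.

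WNT target genes were mostly lower after the treatment. Their list was made with earlier results of these data known, so it is no independent check of the treatment. Of 10 listed targets, 6 fell (limma, adjusted p below 0.05), from *Nkd1*, a feedback inhibitor of WNT signaling, with a log2 ratio of -1.31, over *Apcdd1*, *Sp5*, *Tcf7* and *Lef1* to *Wif1* with -0.84, and 8 were lower on both arrays. Over all genes tested, 1.15% were called lower and 27.5% were lower on both arrays. The highest of the 10 targets was *Rnf43* with 0.00. *Axin2*, another feedback inhibitor, had a log2 ratio of -1.01 (adjusted p = 0.0502). Of the markers of the ureteric mesenchyme (UM) and of the ureteric epithelium (UE), which make up the labelled tissue, all 10 of each list were measured above background.

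In the IGF system, *Igfbp3* was the only one of the 10 genes to pass the test, close to its threshold. Its RNA was 1.53-fold higher after treatment with IWP-2, and it rose on both arrays. *Igfbp4* had a log2 ratio of -0.46, which did not pass the test. The ligand *Igf2*, the receptor *Igf1r* and the remaining binding proteins did not pass it either. Of the 10 genes, 1 was called higher at a false discovery rate of 0.05 and 0 were called lower, where 0.611% of the 20119 genes tested were called higher and 1.15% lower. At an unadjusted p below 0.05, limma gave 3 members higher (*Igf1*, *Igfbp3* and *Igfbp5*) and 2 lower (*Igfbp2* and *Igfbp4*), where 8.67% of all genes were higher and 4.74% lower at that threshold. These 5 members became 3 with the processed signals or a dye term and 2 with median centring or the deposited series table. Higher on both arrays were 3 of the 10, against 28.5% of all genes, and lower on both were 5 of the 10, against 27.5%. With arrays centred on the median, *Igf2* (0.20 and -0.53) and *Igfbp2* (0.13 and -0.66) were higher on replicate 1, and 3 members were lower on both arrays, against 20.6% of all genes. The median log2 ratio of the members was -0.03, beside 0.00 for all genes tested. By the cut-offs of the study, an intensity of at least 100 and a fold change of at least 2 on both arrays, 0 of the 8 members bright enough passed, beside 0.419% of the 14549 bright genes. That rule involves no test, and its use on the brightest probe and the brighter channel was a choice made here. *Igfbp6* and *Igfbp7* did not reach the intensity. Fewer cells of a type and less RNA per cell cannot be told apart in such pools.

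**Figure D1:**
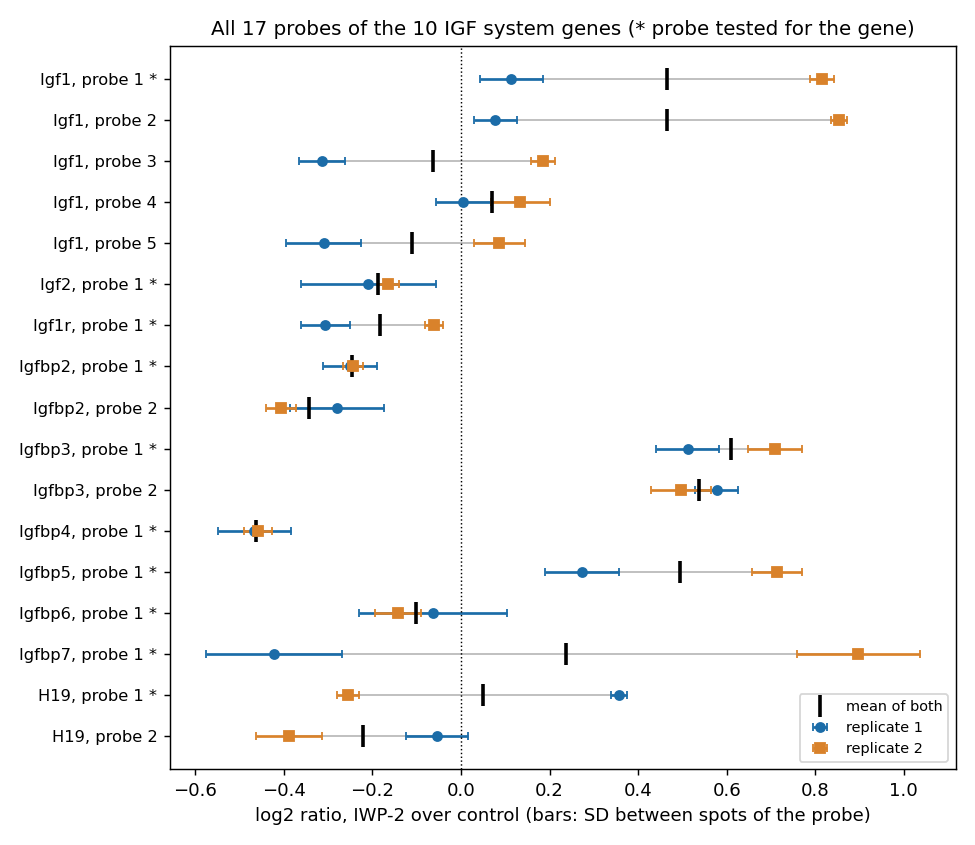
Log2 ratio of IWP-2 over control (x axis) for all 17 probes of the 10 genes (y axis, probes of a gene numbered from the brightest), with circles for replicate 1, squares for replicate 2, black ticks for their mean and bars for the SD between the spots of a probe. Both *Igfbp3* probes lay above 0 on both arrays, at 0.50 to 0.71, and the *Igfbp4* probe lay at -0.47 and -0.46.

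Of the ligands, *Igf1* differed between the arrays and between its probes. Its brightest probe (chr10:87393581-87393640, plus strand, mm9) had a processed intensity of 2046 in the control and 2231 in the treated pool of replicate 1, and of 1421 and 2497 on replicate 2. The treated pool was thus the brighter one on both arrays, but by a log2 ratio of 0.11 on replicate 1 and 0.82 on replicate 2. The mean was 0.46 ± 0.17 (SE, n = 2, limma adjusted p = 0.296), with a 95% confidence interval of 0.06 to 0.87. The SD between the arrays, 0.50, was larger than that of 97.8% of all genes. A second probe, which overlaps the first by 40 bases and is no independent measurement, gave 0.08 and 0.85. The mean over all 5 probes was 0.16 (limma adjusted p = 0.736), with -0.09 on replicate 1 and 0.42 on replicate 2. The other 3 probes of *Igf1* had means of -0.06, 0.07 and -0.11, and of these the probes with means of -0.06 and -0.11 were lower on replicate 1 and higher on replicate 2. All 5 probes had a higher ratio on replicate 2 than on replicate 1. The probe with the mean of 0.07 is assigned in the files to another transcript of the gene.

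*Igf2*, the main fetal growth factor of the family, was measured by 1 probe (chr7:149839661-149839720, minus strand, mm9). Its intensity was 10114 in the control and 8972 in the treated pool of replicate 1, and 6626 and 5724 on replicate 2. Both treated pools were slightly dimmer than their own control, with log2 ratios of -0.21 and -0.16. The mean of -0.19 ± 0.10 (SE, n = 2) did not pass the test (limma adjusted p = 0.526), and its 95% confidence interval reached from -0.42 to 0.05.

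The receptor *Igf1r* (chr7:75378461-75378520, plus strand, mm9) gave 5116 in the control and 4300 in the treated pool of replicate 1, and 5263 and 4860 on replicate 2. The treated pools were again the dimmer ones, by -0.31 and -0.06. The mean was -0.18 ± 0.11 (SE, n = 2, limma adjusted p = 0.613), with a 95% confidence interval of -0.44 to 0.08. No change of *Igf2* or *Igf1r* was detectable with 2 arrays, at these widths of the intervals.

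*Igfbp3* encodes the main carrier of IGFs in the adult circulation and is also made locally in many tissues. Its brighter probe (chr11:7106594-7106653, minus strand, mm9) had an intensity of 4232 in the control and 6096 in the treated pool of replicate 1, and of 2766 and 4485 on replicate 2. The treated pools were the brighter ones on both arrays. The log2 ratio was 0.51 on replicate 1 and 0.71 on replicate 2, with a mean of 0.61 ± 0.10 (SE, n = 2, 95% confidence interval 0.36 to 0.86, limma adjusted p = 0.0478). The second probe lay 1295 bases away (chr11:7107949-7108008) and is assigned in the files to another transcript. Its intensity was 63.9 in the control and 107.4 in the treated pool of replicate 1 and 49.5 and 76.3 on replicate 2, and it gave log2 ratios of 0.58 and 0.50. When each probe was tested on its own, both passed (limma adjusted p = 0.0371 and 0.0490). The call lay close to the threshold: the mean stayed between 0.57 and 0.62 under 12 other settings of the processing, while the adjusted p ranged from 0.0192 to 0.566 and passed in 4 of them.

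*Igfbp5* encodes the most conserved of the binding proteins, which also binds to extracellular matrix. At its probe (chr1:72904829-72904888, minus strand, mm9) the intensity was 14681 in the control and 17990 in the treated pool of replicate 1, and 14369 and 23997 on replicate 2. The control pools were alike, and the treated pools differed from each other more than the control pools did. With arrays centred on the median, the log2 ratio was the larger one on replicate 1, at 0.81 and 0.08. After loess the log2 ratios were 0.27 and 0.71 and their mean was 0.49 ± 0.13 (SE, n = 2, 95% confidence interval 0.18 to 0.81), which did not pass the test (limma adjusted p = 0.149).

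*Igfbp4* encodes a carrier known mainly as an inhibitor of IGF action, which the protease PAPPA cuts to release the ligand. Its probe (chr11:98913334-98913393, plus strand, mm9) gave 3089 in the control and 2218 in the treated pool of replicate 1, and 2795 and 2030 on replicate 2. Each treated pool was dimmer than the control pool of its array, and after loess normalization the arrays were nearly equal, with log2 ratios of -0.47 and -0.46. With arrays centred on the median the ratios were -0.31 and -0.66. The mean was -0.46 ± 0.10 (SE, n = 2, 95% confidence interval -0.70 to -0.23, limma adjusted p = 0.0827). The SD between the arrays, 0.01, lay at percentile 2.91 of all genes, and the SE rests mainly on the spread of the other genes, which limma borrows. Under a variance prior that follows the intensity, *Igfbp4* passed (adjusted p = 0.0344, and 0.0428 with robust estimation). Over all 12 other settings its adjusted p ranged from 0.0344 to 0.984 and its mean from -0.49 to -0.46.

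*Igfbp2*, a carrier that is abundant in the embryo, had 2 probes that were 76 bases apart on chromosome 1. The brighter one (chr1:72898813-72898872, plus strand, mm9) gave 9189 in the control and 8124 in the treated pool of replicate 1, and 8639 and 6965 on replicate 2. The treated pools were the dimmer ones, with log2 ratios of -0.25 and -0.24. The mean was -0.25 ± 0.10 (SE, n = 2, limma adjusted p = 0.343), with a 95% confidence interval of -0.48 to -0.01. The second probe gave -0.28 and -0.41. The probes of *Igfbp2* and *Igfbp5* lay only 5956 bases apart, on opposite strands, and had mean log2 ratios of opposite sign.

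*Igfbp6*, a carrier with a preference for IGF2, and *Igfbp7*, a relative that binds IGFs weakly, were dim. *Igfbp6* (chr15:101979852-101979911, plus strand, mm9) had 33.4 in the control and 29.8 in the treated pool of replicate 1, and 37.4 and 32.9 on replicate 2. Its log2 ratio was -0.06 on replicate 1, where the SD between the spots of the probe was 0.17, and -0.14 on replicate 2, and the mean of -0.10 did not pass the test (limma adjusted p = 0.833). *Igfbp7* (chr5:77778271-77778330, minus strand, mm9) had 54.2 in the control and 36.8 in the treated pool of replicate 1, but 27.2 and 62.0 on replicate 2. It was lower in the treated pool of one array and higher in that of the other, with log2 ratios of -0.42 and 0.90. Its SD between the arrays, 0.93, exceeded that of 99.8% of all genes, and the mean of 0.24 had a 95% confidence interval of -0.43 to 0.90 (limma adjusted p = 0.882).

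**Figure D2:**
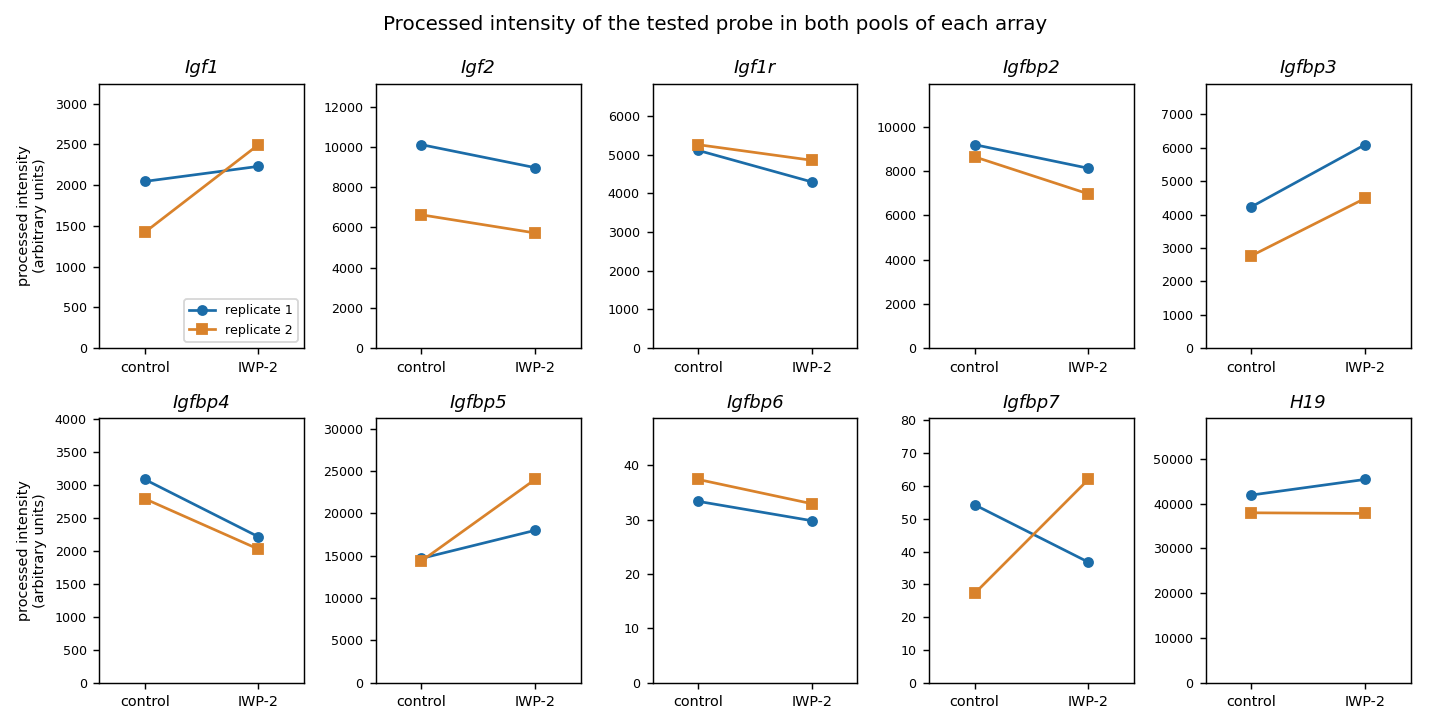
Processed intensity (y axis, arbitrary units, from 0, each panel with its own scale) of the tested probe of each gene in the control and the IWP-2 pool, with circles for replicate 1 and squares for replicate 2 and a line for each array. Lines for *Igfbp3* rose from 4232 to 6096 and from 2766 to 4485, lines for *Igfbp4* ran downwards on both arrays, and those of *Igfbp7* crossed.

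*H19*, an imprinted long non-coding RNA, was measured by 2 probes assigned to different transcripts, and their mean log2 ratios had opposite signs. Neither passed the test, and the difference between them was not tested. They lay 865 bases apart on the minus strand of chromosome 7 (mm9), at chr7:149761492-149761551 for the brighter and chr7:149762417-149762476 for the dimmer one, and their sequences are printed as in the array files because the sign of the mean for *H19* depends on which is used. They had a GC content of 45.0% and 55.0%.
H19 probe 1: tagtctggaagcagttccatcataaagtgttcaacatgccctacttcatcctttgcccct
H19 probe 2: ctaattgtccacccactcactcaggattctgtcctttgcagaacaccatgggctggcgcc

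Probe 1 had an intensity of 41903 in the control and 45392 in the treated pool of replicate 1, and 37944 and 37804 on replicate 2. The processed intensities thus differed by a factor of 1.08 and 0.996. After loess normalization the log2 ratios were 0.36 and -0.25, and with arrays centred on the median they were 1.15 and -1.07. The ratio of a single array thus moved widely with the normalization, whereas the mean of the swapped arrays did not, at 0.05, 0.06 and 0.04 after loess, in the processed signals and after median centring. The mean of 0.05 ± 0.15 (SE, n = 2) was far from passing the test (limma adjusted p = 0.975, 95% confidence interval -0.32 to 0.42). Probe 2 had 73.6 in the control and 68.4 in the treated pool of replicate 1 and 80.2 and 58.8 on replicate 2. It gave -0.05 and -0.39, and the mean over both probes was -0.086, opposite in sign to probe 1 alone.

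The *H19* and *Igf2* probes were 78109 bases apart. Tested as well were 11 further genes listed from around them on chromosome 7, all outside the stretch between *H19* and *Igf2* in RefSeq order. None was called, and limma gave 0 higher and 2 lower at an unadjusted p below 0.05, beside 8.67% and 4.74% of all genes. The 11 genes ranged from -0.37 for *Lsp1*, a cytoskeletal protein of leukocytes, to 0.24 for *Th*, tyrosine hydroxylase of catecholamine-producing cells. On both arrays 3 were higher and 4 lower, beside 28.5% and 27.5% of all genes. The median log2 ratio of the 11 was 0.00, as over all genes tested.

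**Figure D3:**
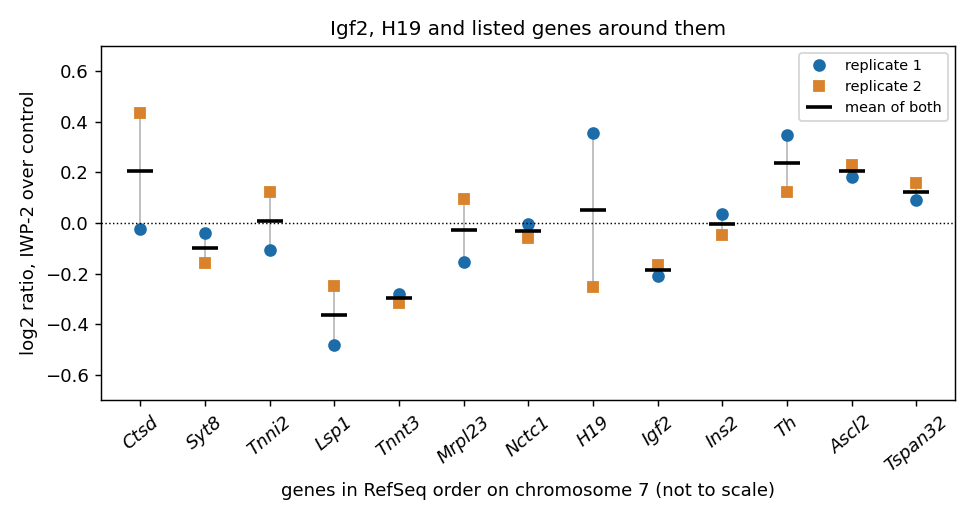
Log2 ratio of IWP-2 over control (y axis) on replicate 1 (circles), on replicate 2 (squares) and as their mean (black ticks) for *Igf2*, *H19* and 11 genes around them, in the RefSeq order of chromosome 7 (x axis, not to scale). *H19* had 0.36 on replicate 1 and -0.25 on replicate 2, while *Igf2* lay at -0.21 and -0.16.

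Factors that act on *Igf2* and *H19* were represented by 7 genes, of which 1 fell, beside 1.15% of all genes called lower. The gene that fell was *Hmga2*, an architectural chromatin protein of embryonic cells. It had 37699 in the control and 22795 in the treated pool of replicate 1 and 30686 and 18037 on replicate 2. Each treated pool was dimmer than the control pool of its array, and the mean log2 ratio was -0.73 (limma adjusted p = 0.0388). Over 12 other settings the adjusted p of *Hmga2* reached 1.000 and passed in 5, and its mean stayed between -0.75 and -0.72. The remaining regulators, among them *Ctcf*, the insulator protein of the imprinting control region, *Plag1* and *Trim28*, did not pass, and the highest of the list was *Hmga1* with 0.08. Of 3 genes for RNA-binding proteins of *Igf2* mRNA (*Igf2bp1*, *Igf2bp2* and *Igf2bp3*), 0 passed. At an unadjusted p below 0.05 in limma there were 0 of them, beside 8.67% of all genes higher and 4.74% lower. The log2 ratios of the 3 lay between -0.03 and 0.05.

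Of 16 other imprinted growth genes tested, 0 were called. At an unadjusted p below 0.05 limma gave 2 higher and 3 lower, beside 8.67% and 4.74% of all genes. The extremes were *Phlda2*, which restrains placental growth, at -0.68 (limma adjusted p = 0.0701) and *Peg10*, a retrotransposon-derived gene, at 0.53 (adjusted p = 0.0622). *Cdkn1c*, a cell cycle inhibitor, lay at 0.04, and the median of the list was 0.05. *Grb10*, an imprinted adaptor that dampens IGF1R signaling, had 0.13 on replicate 1 and -0.40 on replicate 2. It is counted among the receptor adaptors below and not in this list.

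Further parts of the IGF pathway were read from lists of genes by role. Counts in these lists stand beside 8.67% of all genes higher and 4.74% lower at an unadjusted p below 0.05 in limma. Of 8 other ligands, receptors and carriers, *Ins1* and *Igfals* were not well above background, and 0 of the 6 tested were called, with 2 higher and 0 lower at an unadjusted p below 0.05 in limma. *Igf2r*, which clears IGF2 from the cell surface, had the lowest mean, -0.26, with -0.47 on replicate 1 and -0.06 on replicate 2. *Igfbp1*, another binding protein, had the highest, 0.33, and *Insr*, the insulin receptor, lay at -0.03. The median of these 6 was 0.09.

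Downstream of the receptor, 0 of 8 adaptors and 0 of 20 genes of the PI3K and AKT relay were called. Over all genes, 0.611% were called higher and 1.15% lower. At an unadjusted p below 0.05 limma gave 0 adaptors higher and 1 lower, and 1 gene of the relay higher and 0 lower. *Irs1*, the docking protein through which IGF1R recruits PI3K, came nearest: it had 3307 in the control and 1921 in the treated pool of replicate 1, and 3260 and 2309 on replicate 2. The treated pools were dimmer on both arrays, with a mean log2 ratio of -0.63 (limma adjusted p = 0.0557). *Irs2*, its relative, lay at 0.02, and the highest adaptor was *Grb14* at 0.28. The relay spanned a narrow range, from -0.19 for *Foxo3*, a transcription factor that AKT holds out of the nucleus, to 0.44 for *Pik3cb*, a catalytic subunit of PI3K. Medians were -0.02 for both lists.

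Proteases that cut IGF-binding proteins, and their inhibitors, gave 0 calls among 8, with 1 higher and 1 lower at an unadjusted p below 0.05 in limma. *Pappa*, whose product cuts IGFBP4, had -0.27 on replicate 1 and 0.28 on replicate 2. The highest was the metalloprotease *Adamts1* at 0.43, and the lowest *Pappa2* at -0.30. Their median was -0.01.

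Proteins that carry an IGF-binding-protein domain but lie outside the family gave 1 call among 7 tested. Over all genes, 0.611% were called higher. *Esm1*, a proteoglycan made by endothelial cells, had 1338 in the control and 2721 in the treated pool of replicate 1, and 760 and 1794 on replicate 2. Each treated pool was brighter than the control pool of its array. The mean log2 ratio of *Esm1*, 1.12 (limma adjusted p = 0.00834), was larger than that of any of the 10 genes described above. The call held in 9 of 12 other settings. The other 6 of these genes ranged from -0.12 for *Ccn2*, a matricellular protein, to 0.28 for its relative *Ccn4*.

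**Figure D4:**
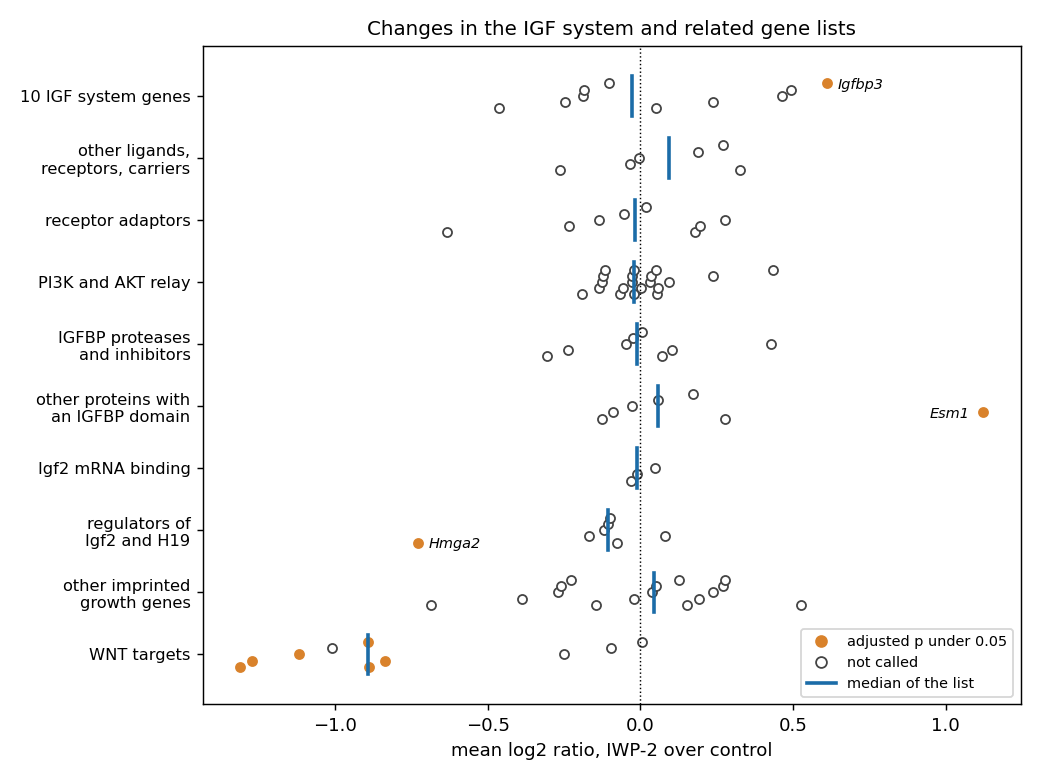
Mean log2 ratio of IWP-2 over control (x axis) for every tested gene of the lists shown (y axis), without the markers of cell types, filled where the limma adjusted p was below 0.05, with a bar at the median of the list. In the lists shown, *Igfbp3*, *Esm1* and *Hmga2* were called beside 6 WNT targets, and the median of the WNT targets lay at -0.89.

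Markers of other cell types moved as well. Their counts, here and in the next paragraph, stand beside 28.5% of all genes higher and 27.5% lower on both arrays. Called were 0.611% of all genes higher and 1.15% lower, and at an unadjusted p below 0.05 limma gave 8.67% and 4.74%. All 10 endothelial markers were higher in the treated pools of both arrays, from 0.24 for *Tie1* to 0.74 for *Kdr*. Called were *Kdr* and *Cldn5*, which passed in 5 and 6 of 12 other settings. The summed intensity of the 10 was 18297 and 13629 in the control pools and 25347 and 21214 in the treated pools. All 12 macrophage markers were higher on both arrays, from 0.24 for *Fcgr1* to 0.92 for *Adgre1*. Only *Adgre1* was called, and it passed in 6 of 12 other settings. The summed intensity of the macrophage markers was 18564 and 14593 in the control and 23220 and 21277 in the treated pools. Nerve and neural crest markers included *Ret*, also on the list of UE markers, and *Th*, also among the listed genes of chromosome 7. Of these markers, 7 of 8 were higher on both arrays, and the lowest mean was that of *Sox10* with 0.22. Their sums were 32067 and 33144 in the control and 45729 and 42053 in the treated pools. The part of these cells in the values of *Igfbp3*, *Igfbp5*, *Igf1* and *Esm1* was not tested.

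Red blood cell markers differed between the arrays. The mean log2 ratios of the 8 markers lay between 0.22 for *Slc4a1* and 0.56 for *Hbb-bh1*. The median log2 ratio of the 8 markers was 0.11 on replicate 1 and 0.71 on replicate 2, and their summed intensity was 139810 and 70888 in the control and 155910 and 112040 in the treated pools. Of 8 liver or yolk sac markers, 3 were not well above background and the 5 tested had a median of 0.17, from -0.27 for *Serpina1a* (-1.20 on replicate 1 and 0.66 on replicate 2) to 1.495 for *Afp* (0.28 and 2.71), while *Apoa2* had 0.37 and -0.27. Of 8 kidney mesenchyme markers, *Meox1* rose on both arrays (1.20 and 0.72, mean 0.96, limma adjusted p = 0.0286). Its call held in 7 of 12 other settings. The other kidney mesenchyme markers ranged down to -0.56 for *Osr1*. Over the list, 2 were higher and 2 lower on both arrays, and the median was 0.00. *Six2* had opposite signs on the arrays (1.03 on replicate 1 and -0.38 on replicate 2), as had *Foxd1* of the UM list (0.89 and -0.36). Pericyte markers lay between -0.37 for *Rgs5* and 0.50 for *Pdgfrb* and striated muscle markers between -0.43 for *Actc1* and 0.66 for *Myog*, with no call in either list. At an unadjusted p below 0.05 limma gave 3 pericyte markers higher and 2 lower, and 1 muscle marker higher and 1 lower. In the UM, 4 of 10 markers fell (*Foxf1*, *Tbx18*, *Ptch1* and *Tcf21*). These calls held in 7 to 10 of 12 other settings. The paper proposes *Foxf1* and *Ptch1* as likely direct targets of WNT signaling, so the list is not neutral to the treatment. It ranged from -1.57 for *Foxf1* to 0.33 for *Meis1*, with a median of -0.34. Summed intensities of the UM list were 75209 and 70133 in the control and 65347 and 63122 in the treated pools. UE markers gave 0 calls of 10, with 3 higher and 1 lower at an unadjusted p below 0.05 in limma, from -0.45 for *Wnt9b* to 0.35 for *Ret*, and their sums were 49784 and 48899 in the control and 50922 and 56435 in the treated pools. The part of these tissues in the values of the IGF genes was not tested.

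The bases upstream of *Igfbp3* and *Igfbp4* are shown because these binding proteins had the largest mean ratios in either direction among the 10 genes, and because the treatment acts on WNT signaling. They are the 250 bases before the RefSeq start (GRCm38.p6), at chr11:7213924-7214173 on the minus strand for *Igfbp3* and at chr11:99040994-99041243 on the plus strand for *Igfbp4*, with capitals for the letters TATAAA. Their GC content was 73.2% and 69.2%.
Igfbp3 upstream: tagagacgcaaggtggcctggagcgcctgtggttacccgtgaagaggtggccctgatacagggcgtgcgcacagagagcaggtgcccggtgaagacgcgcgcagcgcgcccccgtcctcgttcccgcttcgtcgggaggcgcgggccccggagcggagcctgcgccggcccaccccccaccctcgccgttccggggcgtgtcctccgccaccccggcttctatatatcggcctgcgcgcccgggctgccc
Igfbp4 upstream: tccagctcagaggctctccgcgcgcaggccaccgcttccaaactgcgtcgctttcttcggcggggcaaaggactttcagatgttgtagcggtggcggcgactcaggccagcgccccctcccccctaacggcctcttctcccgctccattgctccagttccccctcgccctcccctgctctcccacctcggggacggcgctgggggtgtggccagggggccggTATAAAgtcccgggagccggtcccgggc

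Windows from 250 bases before to 50 after the start were searched on both strands for CTTTGAT and CTTTGAA, forms of the motif bound by TCF/LEF factors, and for TATAAA. There were 13 such windows for 9 of the 10 genes, without *H19*. CTTTGAT was in none of them, and in 3.73% of all 32851 windows. CTTTGAA was in 1, that of *Igf1*, at position -186 from the start, and in 5.14% of all windows. TATAAA was in 2, at position -28 of *Igfbp4* and, on the other strand, at position -148 of *Igfbp6*, and in 13.6% of all windows. The *Igfbp3* window held none of the 3 in these exact letters, and other forms of TATAAA were not searched for.

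**Figure D5:**
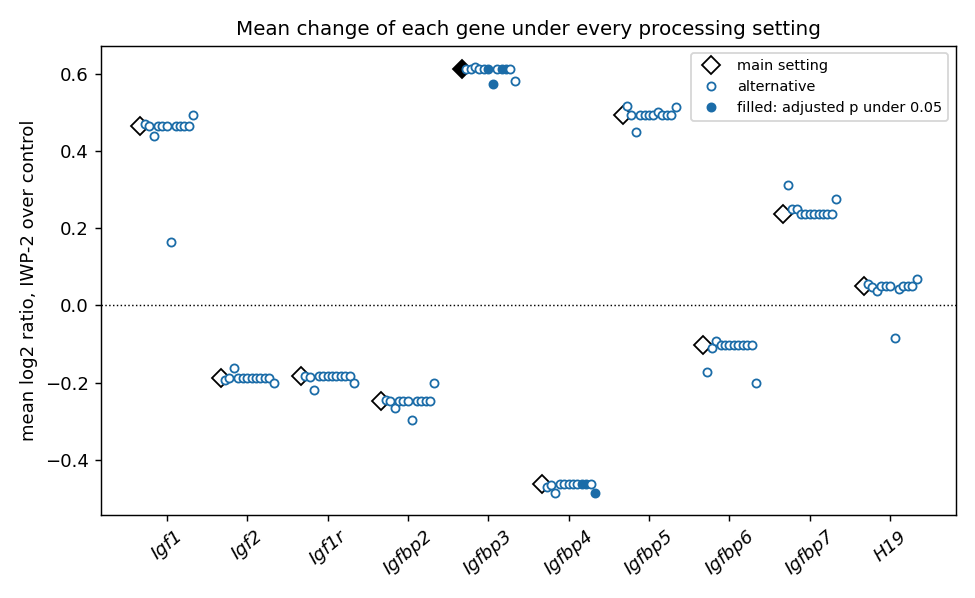
Mean log2 ratio of IWP-2 over control (y axis) of each of the 10 genes (x axis) under the main setting (diamond) and 12 alternatives (circles), filled where the limma adjusted p was below 0.05. Means of *Igfbp3* stayed at 0.57 to 0.62 but passed in 4 alternatives, and those of *H19* crossed 0 in 1.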

How the data were processed

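Deposited were the scanner files of both arrays, with the intensity of every spot and of its local background per channel, written by Feature Extraction 12.2.0.7 (the submitters' notes name version 10.7.3.1), with processed intensities that the software had background-subtracted and dye-normalized. Another deposited unit, in a table of the series, is a signed fold change rounded to 1 decimal. After the step between 1 and -1 was removed, 98.9% and 99.9% of its values at 18209 bright probes lay within 0.1 of the processed ratio. Median intensity was 307 to 680 over the channels, 68.6% to 70.7% of spots were well above background, and 4.51% and 3.30% were outliers.

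In R 4.3.3 with limma 3.58.1 (files read with the data.table package, version 1.17.8), mean intensities were corrected by normexp (offset 50) and loess within arrays. Outlier spots (3 of the 68 on each array) were dropped and spots of a probe averaged. A probe was kept if over 0.5 of its spots were well above background in the treated channel of both arrays or the control channel of both, and the brightest kept probe stood for its gene. The functions lmFit and eBayes were run on 20119 genes with the dye swap as a sign, with Benjamini-Hochberg adjustment over all of them. There was 1 residual degree of freedom per gene and a prior of 5.52. With 2 arrays the pools are the replicates. The p-values and intervals rest in part on the spread between them and mainly on the spread of the other genes, which limma borrows. The fit was also run on simulated data, with planted changes larger than the mean change of any of the 10 genes. That run does not bear on calls near the threshold, and its outcome is not reported here. Positions are those of the files (mm9). No annotation of that build was used here, so the part of the gene under each probe is not given. All 10 names matched RefSeq, from which upstream sequences and gene order were taken (GRCm38.p6). The genes and lists were chosen with earlier results of these data known. Named from the lists were the called genes, the highest and lowest of each list, genes needed to describe a role and some with opposite signs on the arrays. The highest of 1 marker list is not reported here. Alternatives changed the background correction, normalization, filter, probe choice, outliers, variance prior, dye term, table and thresholds.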

Additional observations from a re-analysis of the deposited data

How the results depend on the processing

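With 2 arrays, a 95% confidence interval reached 0.24 (median over genes, log2 scale) to either side and the smallest called change was 0.57, so smaller changes could hardly be called. *Igfbp3* kept its direction in all 12 alternatives. It no longer passed with the processed signals (0.61, limma adjusted p = 0.0837), without background correction (0.61, 0.0700), with median centring (0.62, 0.566), without a filter on dim probes (0.61, 0.0925), with a filter in both channels (0.61, 0.0515), with outlier spots kept (0.61, 0.0555), with separate channels and a dye term (0.61, 0.451) and with the series table (0.58, 0.311). With 1 array left out, where no test is possible, its log2 ratio was 0.51 to 0.71. *Igfbp4* passed with the trend and robust prior (-0.46, 0.0428), with the trend prior alone (-0.46, 0.0344, added after seeing the data) and with the series table (-0.49, 0.0422), whose rounded values can be equal on both arrays. *H19* changed sign with the mean over its probes (-0.086). The other members kept their direction in all 12.

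Members past the threshold numbered 0 with the processed signals, without background correction, with median centring, without a filter, with the filter in both channels, with outlier spots, with the dye term and at a false discovery rate of 0.01. They numbered 2 with either trend prior, and with every probe tested on its own they were 2 probes, both of *Igfbp3*. Over all genes, 123 higher and 232 lower became 75 and 171 with the processed signals, 74 and 176 without background correction, 7 and 36 with median centring, 21 and 98 without a filter, 222 and 331 for every probe, 224 and 278 for mean probes, 226 and 290 with the trend and robust prior, 224 and 293 with the trend prior, 0 and 0 with the dye term (1361 and 882 at an unadjusted p below 0.05), 1038 and 1323 with the series table and 9 and 55 at a false discovery rate of 0.01. The cause of these shifts was not tested. In the fit with the dye term the correlation between channels, 0.25, was taken from the fit without it, since it could not be estimated otherwise. Median centring moved the median of all genes to 0.11 on replicate 1 and -0.14 on replicate 2. By the cut-offs of the study, applied here to the brightest probe and the brighter channel, 11 genes were higher and 50 lower. The choice of probe and channel was made here, and the paper counted more genes in both directions. There were 73 and 165 where the fold needed was 1.5, and 7 and 26 where both channels had to reach the intensity, with 0 members each time. The main fit was a paired one, since each array pairs a treated with a control pool and its log2 ratio was tested. No further pairing was possible, because the 2 arrays form 1 group.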
